A study of Mus musculus with 6 samples.

Results

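The 10 genes described here encode cell contacts of the intercalated disc of heart muscle: the connexin genes Gja1, Gja4, Gja5 and Gjc1, the desmosome genes Dsp, Pkp2, Jup, Dsg2 and Dsc2, and the cadherin gene Cdh2. They were chosen by name from the 36564 genes with a value in the files, and all 10 were among the 11382 genes that passed the filter on low values. The series held 6 heart RNA libraries from mice aged 32 weeks. Libraries 1, 2 and 3 came from ApoE-/- mice, the littermate controls, and libraries 4, 5 and 6 from ApoE-/- Timp3-/- mice, called double mutants below. Both groups lack apolipoprotein E, a lipoprotein component whose loss raises blood cholesterol, so the difference between the groups is the loss of Timp3, a secreted inhibitor of metalloproteinases. Nothing in the labels says whether a library came from 1 heart or from pooled hearts, or which chambers were taken, so the spread behind every p-value is that of these libraries and may be technical.

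The intercalated disc is where heart muscle cells meet end to end. Gap junctions, made of connexins, let current pass between the cells, and desmosomes and adherens junctions hold them together while they contract. In the heart, Gja1 (connexin 43) is the connexin of working muscle, Gja5 (connexin 40) that of atrial muscle, the fast conduction system and arterial endothelium, Gja4 (connexin 37) that of endothelium, and Gjc1 (connexin 45) that of nodal tissue.

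The unit is FPKM, fragments mapped to a transcript per kilobase of its length and per library total, here summed over the transcripts of each gene. Aligned sequence came to 654 to 1339 megabases per library. The targeted gene Timp3 was listed at 52.1, 38.0 and 36.3 FPKM in libraries 1 to 3 and at 20.2, 28.0 and 29.6 FPKM in libraries 4 to 6. It was lower in each double mutant than in any control, with the transcript still present, and the sources used here do not give the part of Timp3 that was deleted. The heart muscle genes, 14 of 14 tested, had summed scaled FPKM of 17320 to 22452 (controls) and 20888 to 27100 (double mutants). Libraries stood apart in other cell content: red cell genes summed to 12264 in library 4 and to 117 to 1199 in the others, adipocyte genes to 168 in library 1 and to 1.16 to 30.6 in the others, and atrial genes are given by library below.

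None of the 10 junction genes differed between the genotypes beyond the spread between libraries. By limma on log2(scaled FPKM + 1), 0 of 10 passed at an adjusted p under 0.05, where 0.0439% of all tested genes did. At an unadjusted p under 0.05, again 0 of 10 stood, against 12.2% of all tested genes by limma. In scaled FPKM, the genotypes failed to overlap in 0 of 10 genes. Of all tested genes, 9.21% did so with the double mutants below and 9.98% with them above. As deposited, Pkp2 did not overlap, with each double mutant below every control. The share of all tested genes without overlap was not computed for deposited values. With no further scaling, the median log2 difference of all tested genes was -0.066. The adjusted p ran from 0.60 for Pkp2 to 0.99 for Gja5 by limma. The median log2 difference of the 10 genes, double mutant minus control, was -0.09, beside -0.0063 for all tested genes. Their median absolute difference was 0.15, beside 0.16, and 6 of 10 lay below 0, beside 51.2% of all tested genes. In bulk tissue, fewer cells of a type and less RNA per cell cannot be told apart.

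**Figure D1:**
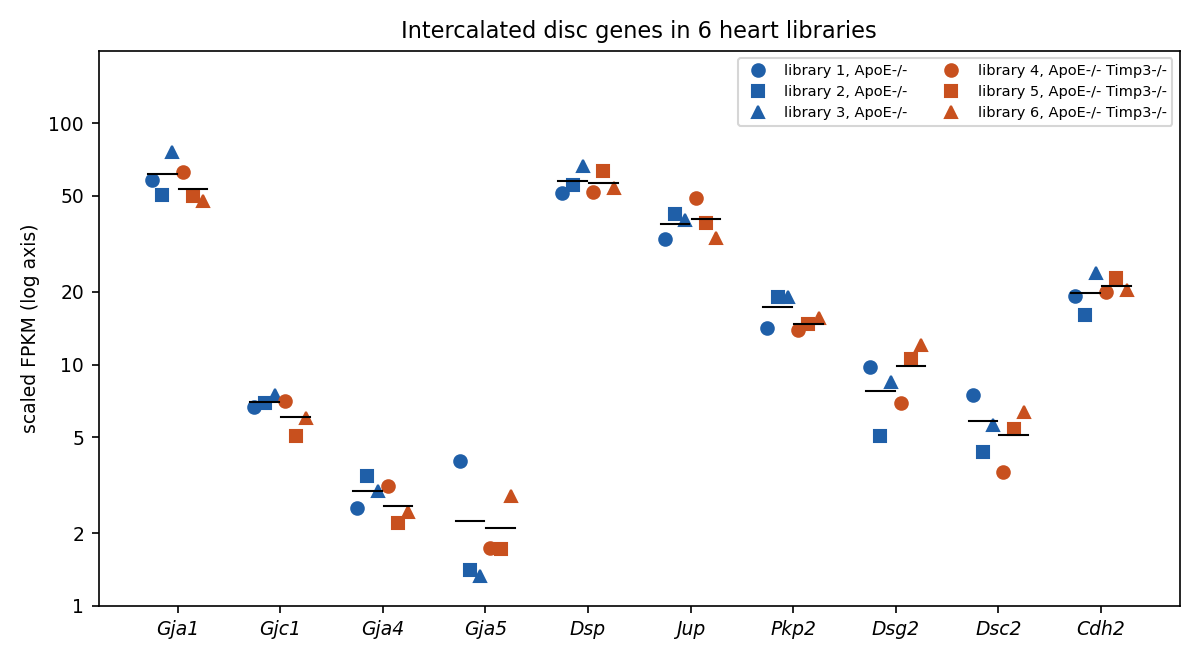
Scaled FPKM (log axis) of the 10 junction genes, 1 point per library, with controls in blue and double mutants in orange and the group mean as a line. The genotypes overlap in every gene, and Gja5 spreads most, from 1.33 to 3.97.

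The 10 genes spanned a wide range of level, compared per transcript length. Over the 6 libraries the mean scaled FPKM was 57.6 for Gja1, 57.2 for Dsp, 39.3 for Jup, 20.4 for Cdh2, 16.1 for Pkp2, 8.80 for Dsg2, 6.53 for Gjc1, 5.45 for Dsc2, 2.79 for Gja4 and 2.17 for Gja5. Several neighbours overlapped in their range over libraries: Gja1 with Dsp, Cdh2 with Pkp2, Dsg2 with Gjc1, Gjc1 with Dsc2, and Gja4 with Gja5. Dsp did not reach down to Jup, nor Jup to Cdh2, Pkp2 to Dsg2 or Dsc2 to Gja4. The spread also differed by gene. Dsp was the steadiest, its highest library 1.30 times its lowest. Gja5 varied most, at 2.99 times, followed by Dsg2 at 2.38 times and Dsc2 at 2.08 times, while the other 6 genes lay between 1.36 and 1.61 times.

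Gja1 (ENSMUSG00000050953, chromosome 10, 56097106 to 56110225, plus strand, build NCBIM37 as for all genes below) encodes connexin 43, the main gap junction channel between ventricular muscle cells. Its FPKM in libraries 1 to 3 were 68.3, 50.8 and 70.4, and those in libraries 4 to 6 were 64.3, 45.0 and 48.1. Control library 2 and double mutants 5 and 6 were the low ones, and the groups overlapped. The scaled mean was 61.8 ± 13.3 for controls and 53.5 ± 8.18 for double mutants (mean ± SD over 3 libraries per genotype, here and below). The log2 difference was -0.19 ± 0.19 SE (95% interval -0.64 to 0.25; adjusted p = 0.73 by limma). In library 3 the sum includes 15.4 FPKM of a transcript assembled there that starts inside the annotated gene. The 2-exon reference transcript alone read 55.0 in that library.

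Gjc1 (ENSMUSG00000034520, chromosome 11, 102660893 to 102681014, minus strand), the connexin of the nodes and of developing myocardium, was listed at 7.77, 7.01 and 6.86 FPKM in libraries 1 to 3 and at 7.22, 4.55 and 6.09 FPKM in libraries 4 to 6. Library 5 was the lowest and library 4 lay among the controls. The means were 7.02 ± 0.399 and 6.05 ± 0.991 scaled FPKM, a log2 difference of -0.19 ± 0.14 SE (95% interval -0.51 to 0.12; adjusted p = 0.63 by limma). A pair of its reference transcripts had values, and they differ in their start exon. Of that pair, the one nearer the coding exon held from 23.2% in library 2 to 100% in library 1. Double mutants, at 72.5%, 59.9% and 43.0%, fell inside that range. In library 1 the other of the pair was listed at 0, and a listed 0 can be a failed estimate. These shares leave out the transcripts assembled over Gjc1. They added 2.52 to 4.71 FPKM in libraries 1, 2, 5 and 6 (4.71 of 7.77 in library 1) and nothing in libraries 3 and 4.

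Gja4 (ENSMUSG00000050234, chromosome 4, 126988665 to 126991283, minus strand) encodes connexin 37, an endothelial connexin. The controls (1 to 3) gave 2.96, 3.46 and 2.75 FPKM and the double mutants (4 to 6) 3.22, 1.97 and 2.47. Libraries 5 and 6 were the lowest as deposited, and library 4 lay between controls. The means were 2.98 ± 0.451 and 2.60 ± 0.492 scaled FPKM, a log2 difference of -0.15 ± 0.15 SE (95% interval -0.51 to 0.20; adjusted p = 0.74 by limma). Of 15 endothelial markers, all tested, 13 had a difference below 0 and 0 passed limma's test. At an unadjusted p under 0.05, 4 were lower, and 5 had no overlap between the groups. Of all tested genes, 51.2% lay below 0 and 12.2% had such a p in either direction. The groups did not overlap in 9.21% of all tested genes with the double mutants below and in 9.98% with them above. The summed scaled FPKM of the endothelial markers ran from 246.5 to 309 in controls and from 218 to 264 in double mutants. For arterial endothelium, 9 of the 10 tested of 12 markers lay below 0 (4 lower at such a p, 4 with no overlap). The sums were 53.5 to 55.1 in controls and 39.7 to 50.6 in double mutants. Other non-muscle lists went both ways. Below 0 lay 10 of 10 fibroblast genes (5 lower at an unadjusted p under 0.05 by limma, 6 with no overlap). For smooth muscle and pericytes it was 8 of 10 tested genes (5 lower and 1 higher, 6 with no overlap), and for adipocytes 6 of 6 tested. Only 4 of 9 tested macrophage genes, 3 of 5 tested epicardial and mesothelial genes and 0 of 4 tested red cell genes lay below 0. Summed levels were 658 to 783 against 613 to 738 for fibroblasts and 294 to 426 against 303 to 338 for smooth muscle and pericytes. None of these markers was at 0 in all libraries, and their part in the Gja4 values was not tested.

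Gja5 (ENSMUSG00000057123, chromosome 3, 96836339 to 96857557, plus strand) encodes connexin 40. Its annotated transcript has a 70-nt start exon at 96836339 to 96836408 and a 3039-nt exon at 96854519 to 96857557 that holds the coding sequence. The sequence around its start and that of Gja1 are shown, the lowest and the highest connexin here. The reason is that a Gja5 transcript with another start was assembled in 1 library. They are RefSeq promoter windows of build GRCm38.p6, 250 bases before to 50 bases after the RefSeq start, 5′ to 3′ on the strand of the gene, at chr3:97032152-97032451 (plus) for Gja5 and chr10:56377050-56377349 (plus) for Gja1. Capitals mark motif matches.
Gja5: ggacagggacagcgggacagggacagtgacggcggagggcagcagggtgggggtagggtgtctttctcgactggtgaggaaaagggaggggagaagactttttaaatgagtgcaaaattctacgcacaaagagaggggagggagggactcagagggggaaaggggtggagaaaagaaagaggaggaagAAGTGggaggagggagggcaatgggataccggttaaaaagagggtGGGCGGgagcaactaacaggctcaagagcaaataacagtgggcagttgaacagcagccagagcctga
Gja1: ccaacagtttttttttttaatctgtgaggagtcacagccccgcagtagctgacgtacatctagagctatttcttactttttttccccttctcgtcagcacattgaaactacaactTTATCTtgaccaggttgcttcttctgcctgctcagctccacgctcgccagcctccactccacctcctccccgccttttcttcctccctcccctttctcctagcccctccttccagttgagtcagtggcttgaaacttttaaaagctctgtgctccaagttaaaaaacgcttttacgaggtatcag
The annotated start of the Gja5 transcript lies 14 bases after the RefSeq start, inside the window. Of 6 motifs searched on both strands (the T-box motif GGTGTG, the NKX2-5 motif AAGTG, the GATA motif AGATAA, the GC box GGGCGG, the E-box CAGCTG and the TATA box TATAAA), Gja5 held AAGTG, first base 62 bases before the RefSeq start, and GGGCGG, first base 17 before it, with no overlap between them. Gja1 held only AGATAA, read on the other strand as TTATCT, at 135 bases before the start. Among 32851 promoters of the same length, 46.4% held AAGTG, 35.7% GGGCGG and 11.2% AGATAA, so these matches describe the windows only. Of the 10 genes, 5 had a window in the table, and of these 4 (Gja5, Gja4, Jup and Dsp) held GGGCGG.

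Gja5 was listed at 4.64, 1.42 and 1.23 FPKM in libraries 1 to 3 and at 1.77, 1.54 and 2.89 FPKM in libraries 4 to 6. Control library 1 and double mutant library 6 were high, and the other 4 lay between 1.23 and 1.77. The means were 2.24 ± 1.50 and 2.10 ± 0.652 scaled FPKM, a log2 difference of 0.01 ± 0.31 SE (95% interval -0.73 to 0.75; adjusted p = 0.99 by limma). This was the widest interval of the 10 genes. The direction changed with single libraries, from -0.18 without library 3 to 0.36 without library 1, and with scaling to a fixed total it was -0.12. Depth was low, at a mean coverage of 1.35 to 5.09 reads per base of the annotated Gja5 transcript, beside 59.0 to 125 for Gja1. For library 1 the authors' deposited 95% interval of the Gja5 transcript was 3.95 to 5.33.

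Gja5 was read beside Myl7, the atrial myosin light chain gene, because atrial muscle carries connexin 40 and ventricular working muscle does not. Myl7 was listed at 409, 2.09 and 1.21 FPKM in libraries 1 to 3 and at 13.4, 173 and 229 FPKM in libraries 4 to 6. The libraries thus fell into separate levels of Myl7, with a gap of 3.78 on the log2 scale in a range of 7.25, and no correlation over all 6 is given. The 2 libraries with the most Gja5, 1 and 6, were also the 2 with the most Myl7. Library 5 broke the pattern: its Myl7 was 173 and its Gja5 was 1.54, below the 1.77 of library 4, where Myl7 was 13.4. Genes of the atrial list did not all share its order. Myl4, the atrial essential light chain, was at 315, 9.87, 6.33, 20.1, 139 and 239 in libraries 1 to 6, and Sln, the atrial calcium pump regulator sarcolipin, at 151, 0.79, 1.51, 2.05, 59.5 and 104, both in the order of Myl7 in their 3 highest libraries. Nppa, the atrial natriuretic peptide gene, was at 823, 802, 104, 142, 491 and 852, with library 2 among the high ones. Bmp10, an atrial growth factor gene, was at 0.48 in library 1 and at 10.1 and 32.5 in libraries 5 and 6. Kcna5, a potassium channel gene placed in the list, was lowest in library 1 (2.55) and highest in library 2 (6.28). Whether Kcna5 is particular to atrial muscle was not tested. The whole atrial list had 13 of 15 genes tested, 13 of them above 0, where 51.2% of all tested genes lay below 0. By limma, 0 of the 13 had an unadjusted p under 0.05, beside 12.2% of all tested genes. All 13 overlapped between the groups. The sums of the list were 176 to 1594 scaled FPKM in controls and 226 to 1585 in double mutants. None of its genes was at 0 in all libraries.

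**Figure D2:**
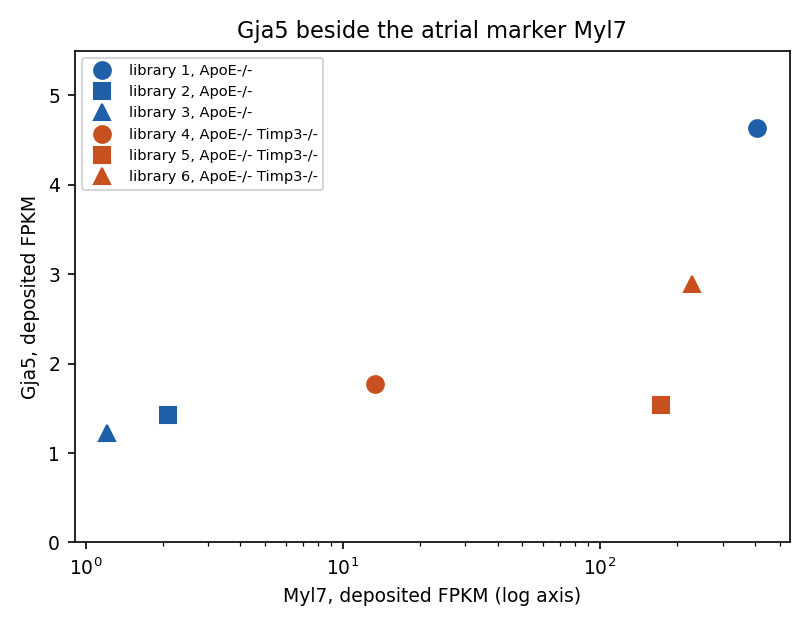
Deposited FPKM of Gja5 against that of Myl7 (log axis), 1 point per library. Libraries 1 and 6 are high on both axes, and library 5 has a Myl7 of 173 with a Gja5 of 1.54.

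With the libraries split into a high and a low Myl7 set after the values were seen, Gja5 went both ways by genotype. Of the 3 libraries with a Myl7 of 173 or more, control 1 was above double mutants 5 and 6, and of the other 3, controls 2 and 3 were below double mutant 4. Neither set was matched in Myl7, which was 409 in control 1 against 173 and 229 in double mutants 5 and 6. In double mutant 4 it was 13.4, against 2.09 and 1.21 in controls 2 and 3. Within each set the order of Gja5 was the order of Myl7. Each set held only 3 libraries, so genotype and Myl7 cannot be told apart in it. The part of atrial content in the Gja5 values was not tested. With the mean of the atrial list as a covariate, the Gja5 difference was -0.30 and did not pass (adjusted p = 0.55 by limma; 0.55 to 0.99 over the settings tried). Conduction system genes, the other muscle source of connexin 40, had 6 of 14 genes tested, all 6 above 0. At an unadjusted p under 0.05 by limma stood 2 of the 6 (Cntn2 and Cacna1g), beside 12.2% of all tested genes. Of the 6, 1 did not overlap between groups, beside 9.21% (double mutants below) and 9.98% (above) of all tested genes. The sums were 11.8 to 16.3 scaled FPKM in controls and 15.3 to 18.9 in double mutants. The part of the conduction system genes in the Gja5 values was not tested.

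Library 5 also differed in where the assembly placed the start of its Gja5 transcripts. There alone, a transcript was assembled that starts 60.9 kb upstream, at 96775453, and joins the same 3039-nt exon through a middle exon. It held 0.62 FPKM (deposited interval 0.35 to 0.90), 40.5% of the Gja5 of that library, beside 0.91 from the near start. In the other 5 libraries no such transcript was assembled, and all listed Gja5 was given to the near start. The far and near transcripts share the 3039-nt exon, so this split rests on the assembly made in each library. Whether the far start was used in library 5 alone was not tested. As a description, the 5 tested genes outside the list whose values over the 6 libraries were most like those of Gja5 were Otud5 (Pearson r = 0.997 on the log2 scale), Serpinb8 (0.991), Copb1 (0.979), Casp4 (0.979) and Gm8181 (0.975). They were picked as the highest r of all tested genes, over 6 libraries that include both genotypes, and all 5, as Gja5, were highest in library 1 and next highest in library 6.

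The make-up of the connexins overlapped between the genotypes for each of the 4 genes. Gja1 held 83.1 ± 3.09% of the summed scaled FPKM of the 4 connexins in controls and 83.2 ± 2.15% in double mutants (exact permutation p = 1). Gjc1 held 9.64 ± 1.39% and 9.42 ± 0.827%, and Gja4 4.15 ± 1.19% and 4.03 ± 0.273%. Gja5 held 5.55%, 2.27% and 1.51% in libraries 1, 2 and 3 and 2.32%, 2.90% and 4.85% in libraries 4, 5 and 6 (exact permutation p = 0.80). With 3 against 3 libraries the smallest p these tests can give is 0.1. The shares do not depend on the scaling between libraries.

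**Figure D3:**
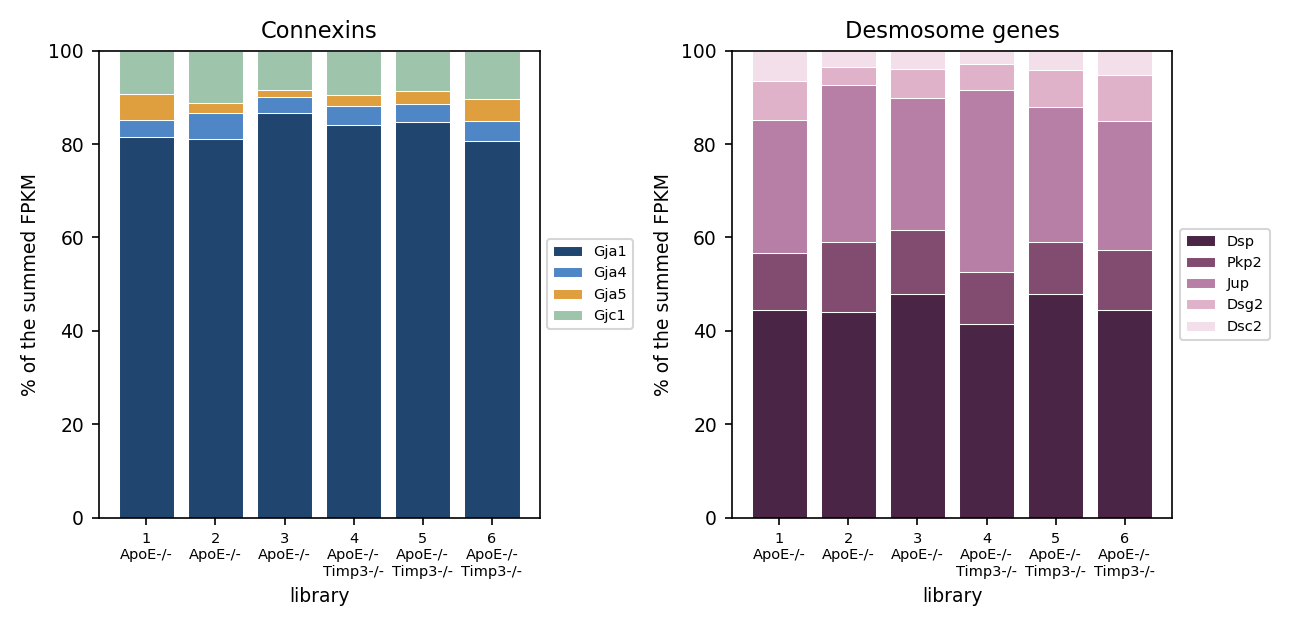
Share (%) of the summed FPKM of the 4 connexins (left) and of the 5 desmosome genes (right) held by each gene, 1 bar per library. Gja1 fills 80.8% to 86.7% of the connexin bar, and the Jup part is largest in library 4, at 39.1%.

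Dsp (ENSMUSG00000054889, chromosome 13, 38243197 to 38290446, plus strand) encodes desmoplakin, which ties the desmosome to the desmin filaments. Libraries 1 to 3 read 60.1, 56.0 and 61.5 FPKM, libraries 4 to 6 53.1, 57.2 and 54.5. The deposited values span a narrow range in which control 2 lies below double mutant 5. The means were 57.9 ± 7.88 and 56.5 ± 6.35 scaled FPKM, a log2 difference of -0.03 ± 0.15 SE (95% interval -0.38 to 0.31; adjusted p = 0.95 by limma).

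Below the level of the gene, Dsp was made of a long and a short form. They differ in the exon before the last, which runs from 38283230 to 38285524 (2295 nt) in the long form and ends at 38283727 (498 nt) in the short one. The 1797 nt between the ends are 599 codons, which encode most of the rod that separates the ends of desmoplakin. The join to the last exon tells the forms apart and is printed from the GENCODE transcripts (build GRCm38, chromosome 13, plus strand), 20 bases each side, with the last exon in capitals.
Dsp long form: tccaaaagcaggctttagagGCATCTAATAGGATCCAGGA
Dsp short form: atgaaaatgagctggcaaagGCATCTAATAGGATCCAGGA
The long form was at 36.4, 28.1 and 37.9 FPKM in libraries 1, 2 and 3 and at 20.4, 36.0 and 34.4 in libraries 4, 5 and 6. The short form was at 23.7, 28.0 and 23.6 FPKM in libraries 1, 2 and 3 and was listed at 0, 21.2 and 20.1 in libraries 4, 5 and 6. It thus held 36.9% to 49.9% of Dsp in 5 libraries, with library 2 highest. Library 4 was the exception. There 61.6% of Dsp (32.7 FPKM) was given to an assembled transcript that leaves out this exon and the one before it, and that form had no value in any other library.

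These forms rest on the assembly made in each library. Every short-form transcript with a value was an assembled one that starts inside the gene, at 38270236 or, in library 5, at 38276064. The annotated short transcript, with the full 5′ end, was listed at 0 in all 6 libraries. A listed 0 can be a failed estimate, so whether the short form was absent from library 4 was not tested. Library 4 also had the highest red cell sum, and the part of that was not tested.

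**Figure D4:**
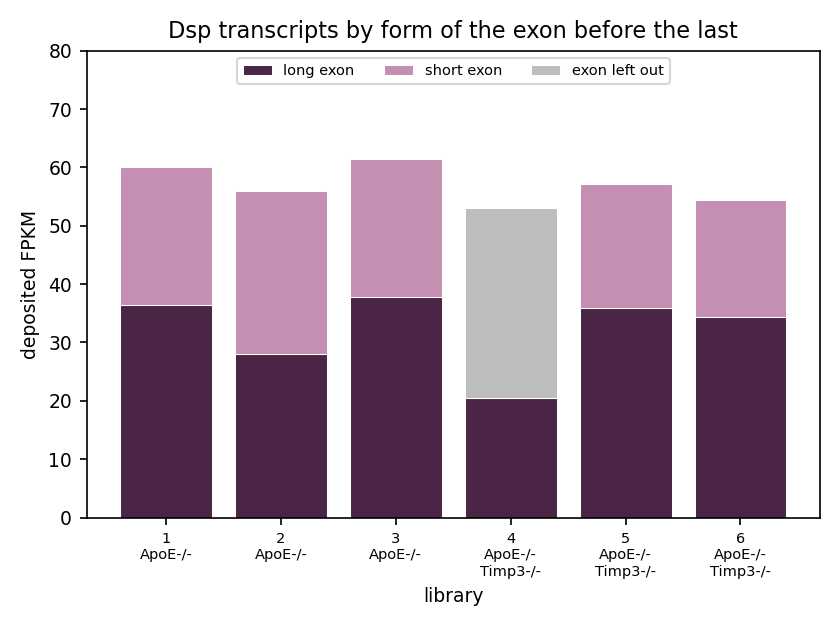
Deposited FPKM of Dsp by form of the exon before the last, stacked, 1 bar per library. The long and short forms appear in 5 libraries, and library 4 has the long form (20.4) and a form without that exon (32.7).

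Jup (ENSMUSG00000001552, chromosome 11, 100230272 to 100259077, minus strand) encodes plakoglobin, which links the desmosomal cadherins to desmoplakin and also sits in adherens junctions. Its FPKM in libraries 1 to 3 were 38.5, 42.6 and 36.5, and those in libraries 4 to 6 were 50.1, 34.5 and 33.9. As deposited, library 4 was the highest and libraries 5 and 6 the lowest, so the double mutants enclosed the controls. The means were 38.3 ± 4.77 and 40.3 ± 7.90 scaled FPKM, a log2 difference of 0.06 ± 0.17 SE (95% interval -0.34 to 0.47; adjusted p = 0.92 by limma). Without library 4 the difference was -0.08, and without library 1 it was -0.04.

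Pkp2 (ENSMUSG00000041957, chromosome 16, 16213411 to 16272805, plus strand) encodes plakophilin 2, the desmosomal plaque protein whose gene is the one most often mutated in arrhythmogenic cardiomyopathy. The controls (1 to 3) gave 16.6, 19.1 and 17.5 FPKM and the double mutants (4 to 6) 14.3, 13.2 and 15.7. As deposited, all 3 double mutants lay below the controls, and no share over all tested genes was computed for deposited values. After scaling, control library 1 (14.2) fell below double mutants 5 (14.7) and 6 (15.6), and the groups overlapped. The means were 17.4 ± 2.75 and 14.7 ± 0.804 scaled FPKM, a log2 difference of -0.22 ± 0.14 SE (95% interval -0.55 to 0.12). Its unadjusted p of 0.17 was the smallest of the 10 genes (adjusted p = 0.60 by limma). Without library 1 the difference was -0.35 (unadjusted p = 0.029, adjusted p = 0.41 by limma; 0.25 to 0.85 over the settings tried). The authors' files gave Pkp2 to a pair of transcripts that differ by 27 nt, and the longer one was at 4.34, 5.21 and 4.94 FPKM in libraries 2, 3 and 5 and listed at 0 elsewhere.

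Dsg2 (ENSMUSG00000044393, chromosome 18, 20716575 to 20763022, plus strand) encodes desmoglein 2, a cadherin of the cardiac desmosome. Libraries 1 to 3 read 11.4, 5.09 and 7.84 FPKM, libraries 4 to 6 7.09, 9.50 and 12.2. The 3 highest libraries, 1, 5 and 6, were the same 3 that had the most Myl7. The means were 7.77 ± 2.43 and 9.84 ± 2.63 scaled FPKM, a log2 difference of 0.32 ± 0.27 SE (95% interval -0.31 to 0.94; adjusted p = 0.69 by limma), the largest difference of the 10 genes. With the atrial covariate it was 0.06. Without library 2, the lowest, it was 0.07. The part of atrial content in the Dsg2 values was not tested.

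Dsc2 (ENSMUSG00000024331, chromosome 18, 20189134 to 20218055, minus strand) encodes desmocollin 2, the partner cadherin of desmoglein 2. Its FPKM in libraries 1 to 3 were 8.74, 4.38 and 5.15, and those in libraries 4 to 6 were 3.68, 4.83 and 6.41. Libraries 1 and 6 were high, as for Gja5, and library 4 was the lowest. The means were 5.81 ± 1.58 and 5.10 ± 1.39 scaled FPKM, a log2 difference of -0.16 ± 0.23 SE (95% interval -0.70 to 0.38; adjusted p = 0.83 by limma). With the atrial covariate it was -0.41 (unadjusted p = 0.027, adjusted p = 0.25 by limma; 0.25 to 0.99 over the settings tried). The annotated form with an extra 46-nt exon, at 20190991 to 20191036, held 61.8%, 67.7% and 73.9% of the pair of full-length Dsc2 transcripts in libraries 1, 2 and 3 and 62.3%, 60.3% and 86.5% in libraries 4, 5 and 6. Both groups leaned to the form with this exon, most of all library 6.

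Cdh2 (ENSMUSG00000024304, chromosome 18, 16747386 to 16967755, minus strand) encodes N-cadherin, the cadherin of the adherens junctions of the disc. The controls (1 to 3) gave 22.4, 16.2 and 22.1 FPKM and the double mutants (4 to 6) 20.5, 20.6 and 20.7. The double mutants lay close together, between control 2 and the other controls. The means were 19.7 ± 4.00 and 21.1 ± 1.56 scaled FPKM, a log2 difference of 0.11 ± 0.16 SE (95% interval -0.27 to 0.49; adjusted p = 0.83 by limma). The shorter of its transcripts, which starts further inside the gene, held 60.6% to 68.7% of Cdh2 in each library.

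**Figure D5:**
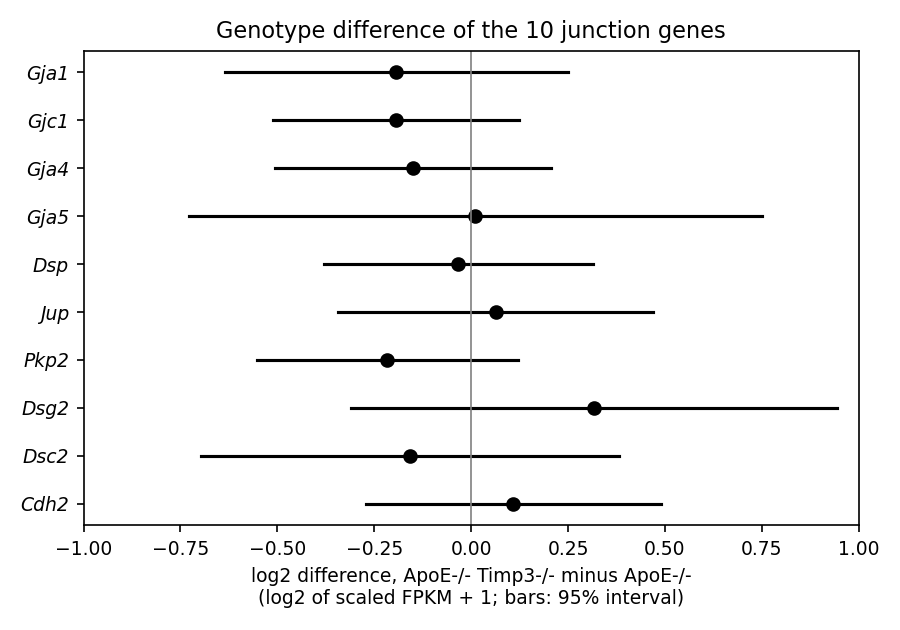
Log2 difference, double mutant minus control, of log2(scaled FPKM + 1) for the 10 junction genes, with 95% intervals from limma. Every interval includes 0, and the points run from -0.22 for Pkp2 to 0.32 for Dsg2.

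Within the desmosome genes, the shares of both genotypes overlapped as well. Dsp held 45.4 ± 2.12% of the summed FPKM of the 5 genes in controls and 44.6 ± 3.29% in double mutants, and Jup 30.1 ± 2.91% and 31.9 ± 6.26%. Pkp2 held 13.6 ± 1.39% and 11.7 ± 1.01% (exact permutation p = 0.20, the smallest of the 5 genes). Dsg2 held 6.17 ± 2.20% and 7.80 ± 2.20%, and Dsc2 4.64 ± 1.60% and 4.05 ± 1.18%. At the level of single transcripts, 14 of the 12418 tested belonged to these 10 genes, and 0 of the 14 passed limma's test, adjusted or at an unadjusted p under 0.05.

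Other genes of the same structures gave 0 calls at an adjusted p under 0.05 by limma. Of 19 other connexins and pannexins, only Gja3 passed the filter. Gja3 (connexin 46) is best known from the lens, yet it was listed at 3.90, 2.93 and 3.64 FPKM in libraries 1 to 3 and at 3.30, 3.54 and 4.44 FPKM in libraries 4 to 6, above Gja5 in 5 of the 6 libraries. Its means were 3.40 ± 0.522 and 3.85 ± 0.586 scaled FPKM (log2 difference 0.14; adjusted p = 0.75 by limma).

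Among 14 other desmosome genes, 3 were tested. Of these, 1 was higher at an unadjusted p under 0.05 by limma, beside 12.2% of all tested genes in either direction. This was Pkp4, a plakophilin relative, at 27.8 ± 1.10 against 36.0 ± 4.80 scaled FPKM (log2 difference 0.36, adjusted p = 0.36 by limma). The desmin gene Des, whose filaments anchor at desmoplakin, was at 647 ± 238 against 645 ± 84.5, and Perp, a desmosomal membrane protein gene, at 35.6 ± 7.37 against 41.1 ± 7.34. The other listed genes, the epidermal desmosome cadherins among them, did not pass the filter.

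Of 22 genes of the adherens junction and its mixed form in heart, 17 were tested. Only 1 was lower at an unadjusted p under 0.05 by limma, beside 12.2% of all tested genes in either direction. Afdn, which encodes the nectin-binding protein afadin, was at 9.72 ± 0.214 against 7.06 ± 0.181 scaled FPKM (log2 difference -0.41, unadjusted p = 0.0043, adjusted p = 0.25 by limma). Scaled values did not overlap between the groups in 3 of the 17, Afdn among them. Of all tested genes, 9.21% did not overlap with the double mutants below and 9.98% with them above. Xirp2, an actin-binding disc protein gene, was at 118 ± 29.4 against 90.5 ± 8.76, and Ctnnb1, encoding beta-catenin, at 64.2 ± 5.70 against 63.9 ± 7.70.

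All 17 listed gap junction partners and disc channels were tested. At an unadjusted p under 0.05 by limma, 2 were lower, beside 12.2% of all tested genes in either direction. Dbn1, encoding the actin-binding connexin 43 partner drebrin, was at 1.75 ± 0.338 against 0.999 ± 0.177 (log2 difference -0.45, adjusted p = 0.33 by limma). It lay close to the filter, a mean FPKM of 1, and passed it through the controls. Its deposited FPKM were 2.29, 1.94 and 1.25 in libraries 1 to 3 and 0.876, 0.847 and 1.21 in libraries 4 to 6. Its place among the lower genes therefore carries little weight. Tmem43, a membrane protein gene mutated in arrhythmogenic cardiomyopathy, was at 5.25 ± 0.610 against 3.86 ± 0.385 (log2 difference -0.36, adjusted p = 0.34 by limma). Tmem65, a disc protein gene, was at 40.2 ± 6.44 against 40.5 ± 5.16.

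Of 17 transcription factors with a known part in heart connexin or conduction gene expression, 16 were tested. Just 1 was higher at an unadjusted p under 0.05 by limma, beside 12.2% of all tested genes in either direction. Hopx was at 94.0 ± 12.2 against 138 ± 22.4 (log2 difference 0.54, adjusted p = 0.29 by limma). Id2 was at 5.71 ± 1.43 against 4.28 ± 0.355 and Klf2, a flow-responsive endothelial factor, at 18.8 ± 7.46 against 20.8 ± 0.825.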

How the data were processed

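Messenger RNA of mouse heart was sequenced in 6 libraries, 3 per genotype. For each library the authors deposited the FPKM and coverage of every transcript, per the file headers and attributes. Per the submitters' processing notes, the tools were TopHat, Bowtie and Cufflinks and the build NCBIM37. Versions, settings, read length and use of strand were not given in these sources. Without reads per gene, no count test or counting interval was possible, and overlapping genes cannot be told apart without strand.

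Reference transcripts were matched to genes by their own ID (82348 of 94670), by gene ID (5266) or by exon overlap of at least 50% on the same strand (6239), with 817 given to none. GENCODE vM21 gave IDs and symbols only; coordinates are NCBIM37 unless GRCm38 is named. Those that Cufflinks assembled, if 300 nt or longer, were given likewise (39120 of 70603), since they held 34.0% to 39.6% of the aligned bases. FPKM were summed by gene. Tested genes had a mean FPKM of at least 1 and 1 transcript of 300 nt or more. The sums were divided by a factor per library (median of ratios, 0.897 to 1.17). Two-sided tests were run with limma 3.58.1 (R 4.3.3) on log2(scaled FPKM + 1), with eBayes following the intensity trend and p-values adjusted by Benjamini-Hochberg over all 11382 genes, at a threshold of 0.05. The script was checked on simulated data. Differences on this scale understate those of low genes. Values of single libraries are as deposited unless called scaled. Shares were compared by exact permutation tests, two-sided. Promoter windows are from RefSeq (GRCm38.p6).

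The 10 genes, the other lists and the tests were chosen with earlier results of these data known. Besides the 10 genes, the text names the targets Timp3 and Apoe, Myl7, of each other junction list the 2 highest genes and the 2 with the smallest p, and the 5 genes most like Gja5. A gene that this rule takes is not reported here. Gja3's order beside Gja5 and the named atrial and conduction genes other than Myl7 were picked after their values were seen. Alternatives for scaling, pseudocount, filter, gene value, weights, covariate and single libraries are in the closing section. Apoe, targeted in both groups, was at 2.97 ± 0.651 and 2.52 ± 0.820 scaled FPKM (SD, n = 3 each).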

Additional observations from a re-analysis of the deposited data

How the results depend on the processing

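With limma, 0 of the 10 junction genes reached an adjusted p under 0.05 under any of the 22 alternatives; the smallest adjusted p was 0.17, for Gja1 and Gjc1 with libraries weighted by their spread. At an unadjusted p under 0.05 stood 2 genes with scaling to a fixed total (Gjc1 at a log2 difference of -0.36, Pkp2 at -0.40), 1 with scaling on cardiomyocyte genes (Pkp2, -0.38), 2 with library weights (Gja1, -0.45; Gjc1, -0.31), 1 with the atrial list as a covariate (Dsc2, -0.41) and 0 to 1 with a library left out. Scaling to a fixed total moved the median of all genes to -0.16 and scaling on cardiomyocyte genes to -0.15; 6 of the 10 genes lay below that median under both, as in the main analysis. The share of lower genes among those at an unadjusted p under 0.05 was 42.9%, and 59.8% with no further scaling, 82.5% with a fixed total and 79.9% with cardiomyocyte scaling.

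Signs turned in 6 of the 10 genes. Gja5 turned to -0.051 with no further scaling, -0.12 with a fixed total, -0.11 with cardiomyocyte scaling, -0.011 at a pseudocount of 10, -0.14 with reference transcripts only, -0.15 with the strongest reference transcript and -0.30 with the atrial covariate, and ran from -0.18 to 0.36 with a library left out. Jup turned to -0.0089 with no further scaling, -0.080 with quantile normalization, -0.12 with a fixed total, -0.11 with cardiomyocyte scaling and -0.057 with library weights (-0.082 to 0.19 with a library left out). Cdh2 turned to -0.074 with a fixed total, -0.061 with cardiomyocyte scaling and -0.022 with library weights (-0.023 to 0.25 with a library left out), and Gjc1 to 0.0079 with the strongest reference transcript. With a library left out, Dsp ran from -0.12 to 0.071 and Dsc2 from -0.32 to 0.034. Gja1, Gja4, Pkp2 and Dsg2 kept their sign under all alternatives that tested them, but not their size: with a library left out, Gja1 ran from -0.33 (library 2) to -0.032 (library 3), Gja4 from -0.26 (library 4) to -0.069 (library 2), Pkp2 from -0.35 (library 1) to -0.15 (library 2) and Dsg2 from 0.071 (library 2) to 0.53 (library 4). Dsg2 was 0.16 with strand ignored. Of these reversals 0 passed the test, and the cause was not tested. The difference in the connexin share of Gja1, 0.09 percentage points, was -0.48 with assembled transcripts given at an exon overlap of 30%, an alternative added after the data were seen, and -0.94 to 1.87 with a library left out. That in the desmosome share of Dsp, -0.85, ran from -2.54 to 0.75 with a library left out and was -3.26 with reference transcripts only, -3.97 with the strongest reference transcript and -0.44 with strand ignored. That of Gja1 was 1.46 with reference transcripts only and 0.83 with the strongest.

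Over all genes, 5 passed, and 3 at a pseudocount of 0.1, 1 at 10, 9 at a filter of 0.1, 1 at a filter of 5, 9 with no filter, 103 with library weights, 1 with the atrial covariate, 9 with strand ignored (added after the data were seen) and 3 to 10 with a library left out. At a filter of 5, Gja4 and Gja5 were not tested. Alternatives of the relation of Gja5 to Myl7 were not run, because Myl7 fell into separate levels. No paired analysis was possible because the libraries are numbered 1 to 6 with no number shared between the groups. Depth per gene is known only as the coverage of its transcripts, which was 1.35 to 5.09 reads per base for Gja5 and 2.92 to 8.10 for Gja4.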
